A study of Mus musculus with 9 samples.

Results

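Immediate early genes are switched on within an hour of a stimulus, without new protein synthesis, and 42 of them were described here across tumors and islets of the mouse INS-p25OE model of pancreatic neuroendocrine tumors. The set is a list of gene names (AP-1, EGR, NR4A, KLF, GADD45 and feedback genes), and all 42 were found among the 54347 genes listed. Of these, 39 passed a filter of at least 1 CPM (counts scaled to the size of the library) in at least 3 of 9 libraries and were tested among 15532 genes. The remaining 3, Fosl1, Egr4 and Nr4a3, were too low to test.

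RNA was sequenced from 3 functional tumors (M1 to M3, whose titles carry the word Inulin), 3 non-functional tumors (M4 to M6) and 3 normal islet samples (NI1 to NI3). Tumor mice carried both Ins2-rtTA and tetOp-p25GFP, so that doxycycline in the drinking water, begun at weaning at 3 to 4 weeks of age, switched on p25 fused to GFP in cells using the Ins2 promoter. p25 is the activating fragment of p35 that keeps the kinase Cdk5 on. Islet samples were labelled strain C57BL/6 and tissue beta islets. Per the study's design, the control mice were siblings from the same litters without either transgene, they shared cages with the tumor mice, and C57BL/6 was the background of both. M2 was from a female and the other 8 libraries were from males. Ages at collection, whether an islet sample pooled several animals and how the islets for RNA were obtained are not given in the sources used here. The study describes its samples as biological replicates, but the labels do not tie each library to an animal.

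Library totals were 36468280 to 63637175 counts, and 3 counts, the floor used for detection, equal 0.0424 to 0.119 CPM. Mitochondrial genes took 32.12% of the counts of M4, 3.537% to 8.409% in the other tumors and 1.756% to 4.939% in islets. Counts of Cdk5r1, which encodes p35, can hold reads of the p25 transgene and of the mouse's own gene, and these were not separated. Its level was 149 to 400.4 CPM in the 6 tumors and 12.5 and 18.3 CPM in NI3 and NI2. In NI1 it was 279 CPM, within the tumor range and apart from the other samples with the islet label. That sample is called the library labelled NI1, and counts of calls in tumors against islets are given with and without it. The summed level of 10 beta cell markers was at least 18848 CPM in every library, tumors among them. The presence of these markers therefore cannot check the islet label of the library labelled NI1. Their sum in that library was 122160 CPM, between the highest tumor at 117010 CPM and NI2 and NI3 at 327360 and 365050 CPM.

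The products of these genes fall into a few roles. AP-1, EGR, NR4A and KLF proteins are transcription factors that carry a short signal into a longer programme of gene expression. In beta cells this class is known to respond to glucose, calcium entry and cyclic AMP. DUSP phosphatases, the RNA-binding protein ZFP36, SOCS3 and IkBa are feedback inhibitors that end the signal. As a class, the transcripts are short-lived, and they are also known to rise while living tissue is handled or taken apart.

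Promoters of such genes are known for binding sites of serum response factor (the CArG box) and of CREB (the cyclic AMP response element, CRE, TGACGTCA, and its core TGACG). The 150 bases before the RefSeq start are shown for 3 genes that were lower in tumors, Fos, Zfp36 and Dusp1, and for 2 that did not pass the test, Dusp5 and Ppp1r15a, because between them they hold the CArG box and the CRE in both outcomes. Capitals mark the CArG box, the CRE, its core and the TATA box (TATAAA), each searched on both strands. Every line reads 5′ to 3′ on the strand of the gene, and coordinates are those of RefSeq on GRCm38.p6.
Fos, chr12:85473740-85473889, plus strand: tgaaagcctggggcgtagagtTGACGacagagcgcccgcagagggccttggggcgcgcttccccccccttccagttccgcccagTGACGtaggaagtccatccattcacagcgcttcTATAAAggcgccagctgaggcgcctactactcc
Zfp36, chr7:28379229-28379378, minus strand: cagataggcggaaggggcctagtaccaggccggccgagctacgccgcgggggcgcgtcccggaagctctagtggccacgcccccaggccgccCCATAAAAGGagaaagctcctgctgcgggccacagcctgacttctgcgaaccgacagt
Dusp1, chr17:26508473-26508622, minus strand: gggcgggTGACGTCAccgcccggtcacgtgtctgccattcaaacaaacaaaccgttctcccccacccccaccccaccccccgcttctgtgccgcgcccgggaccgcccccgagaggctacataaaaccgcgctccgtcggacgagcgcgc
Dusp5, chr19:53528995-53529144, plus strand: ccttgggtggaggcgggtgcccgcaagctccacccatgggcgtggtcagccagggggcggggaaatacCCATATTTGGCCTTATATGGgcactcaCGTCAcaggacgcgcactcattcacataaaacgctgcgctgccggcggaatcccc
Ppp1r15a, chr7:45526269-45526418, minus strand: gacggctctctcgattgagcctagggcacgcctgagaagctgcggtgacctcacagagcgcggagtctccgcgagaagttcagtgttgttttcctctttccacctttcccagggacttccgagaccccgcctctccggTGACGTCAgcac
In the Fos window, CRE cores began 129 and 66 bases before the start and a TATA box 33 bases before it. Zfp36 held a CArG box 58 bases before its start, and Dusp1 a full CRE 143 bases before its start. Dusp5 held a pair of adjacent CArG boxes, beginning 82 and 72 bases before the start, and Ppp1r15a a full CRE 12 bases before it. A match describes letters, not a bound site.

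Over 250 bases before to 50 bases after the start, 35 of the 42 genes had an entry in the RefSeq table, 8 of them among the 10 genes called lower in tumors. The genes without an entry were Arc, Egr1, Egr3, Fosl1, Ier2, Klf10 and Sik1. A CRE core lay in 21 of the 35, against 23.0% of all 27025 genes in the table, and in 6 of the 8 called lower (Fos, Fosb, Dusp2, Nr4a1, Dusp1 and Junb). The EGR site (GCGNGGGCG) was in 12 of the 35, against 6.27% of all genes, and in 4 of the 8. A full CRE, which holds the core on both strands, was in 4 (2.03% of all genes) and a CArG box in 3 (1.81%). For the AP-1 site (TGANTCA) it was 2 of 35 (8.97% of all genes), for the TATA box 8 (15.7%) and for the NF-kB site 8 (5.14%). Within this window, neither the full CRE nor the CArG box divided the genes by whether they were called with all 9 libraries. The CRE was in Dusp1 but also in Btg2, Ppp1r15a and Maff, which were not called. The CArG box was in Zfp36 but also in Egr2 and Dusp5. Btg2 and Ppp1r15a were near the threshold (adjusted p = 0.0726 and 0.0837 from edgeR's test). Both were called lower by DESeq2 and by edgeR without the library labelled NI1, while Maff was called by neither. Sites outside the window were not searched, so a gene without a match here may hold one further away.

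In tumors 10 genes of the set fell, and 0 rose. Those that fell (25.6% of the 39 tested) were Fos, Fosb, Egr1, Dusp2, Jun, Nr4a1, Zfp36, Dusp1, Junb and Ier2, where 40 of all 15532 genes, 0.258%, were called lower (edgeR's quasi-likelihood test, 6 tumors against 3 islet samples, Benjamini-Hochberg adjusted p under 0.05 over all tested genes). Higher calls were 0 in the set and 0 over all genes (0%). At an unadjusted p under 0.05, 19 of the 39 were lower (9.14% of all genes) and 0 were higher (10.7% of all genes). The median log2 fold change of the 39 genes was -0.74, against 0.03 over all genes tested. Of the 39, 33 lay below 0 (47.5% of all genes) and 18 below -1 (6.07% of all genes). Fosb, Dusp2 and Egr3 passed the filter through their islet levels alone, and are in these counts. The annotated span of 12 of the 42 genes, Jun, Zfp36, Dusp1 and Junb among those called, overlaps an opposite-strand gene. The library kit does not mark strand, so reads from exon bases shared by such genes cannot be told apart. Whether their exons overlap was not examined. In bulk RNA, fewer cells that express a gene and less RNA per cell cannot be told apart.

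Without the library labelled NI1, 15 of the 39 genes were called lower (3.17% of all genes) and 0 higher (5.34%), and the median was -0.99. The genes added were Egr3, Socs3, Nr4a2, Btg2 and Ppp1r15a. With all 9 libraries, DESeq2 called 16 lower (3.17% of all genes) and 0 higher (4.96%). Of the 10 genes, Fos, Fosb, Egr1, Nr4a1 and Zfp36 kept their call in each of 9 fits that left out 1 library. Jun and Dusp1 lost theirs without NI3 or without M5, while Dusp2 and Junb were called in 3 of the 9 fits and Ier2 in 2.

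**Figure D1:**
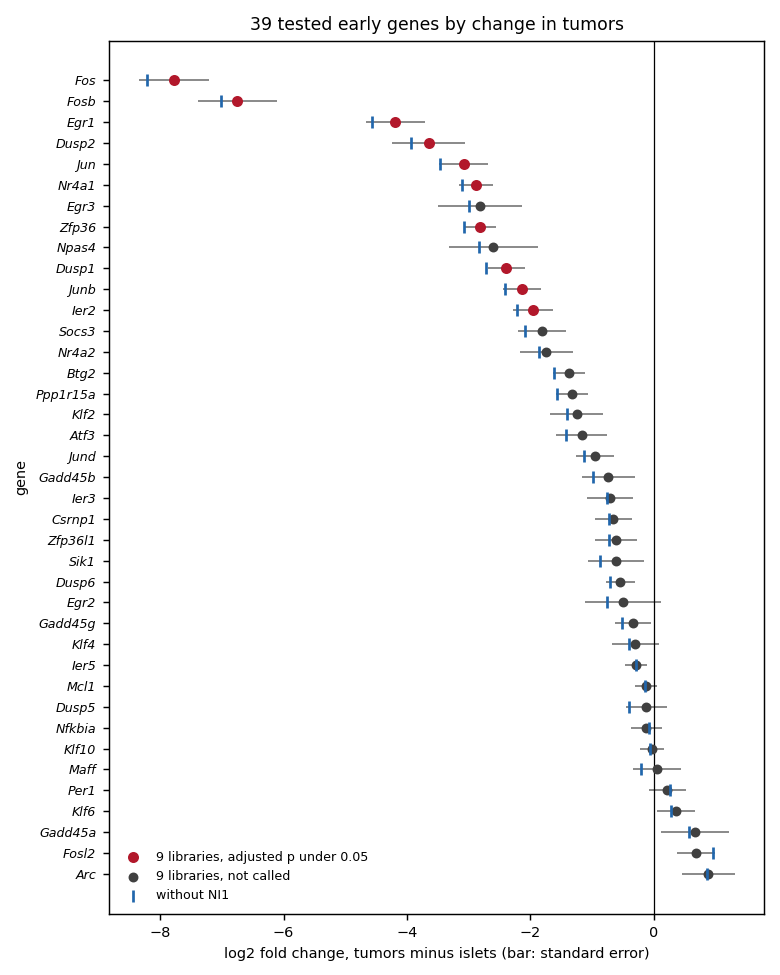
Log2 fold change of 39 early response genes, 6 tumors minus 3 islet samples (horizontal axis), one gene per row, with the standard error as a bar and the value without the library labelled NI1 as a blue tick. Red points, from Fos at -7.78 to Ier2 at -1.96, passed the adjusted p threshold, and the 6 genes to the right of 0 did not.

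AP-1 is a dimer of a FOS and a JUN protein, and Fos, its prototype, changed most. In the 6 tumors its level ran from 1.405 to 3.92 CPM with a median of 2.34. Islet levels were 156 CPM in the library labelled NI1, 1043 in NI2 and 439.6 in NI3. Every islet sample was thus above every tumor, and NI2 was above the library labelled NI1 by 6.70-fold. Tumors averaged 2.50 ± 0.946 CPM (SD, n = 6), the islets averaged 546 ± 453 CPM (SD, n = 3), and the log2 fold change was -7.78 (SE 0.57, adjusted p = 0.000991). Leaving out the library labelled NI1 gave -8.22 (adjusted p = 6.50e-05). Fos (ENSMUSG00000021250) lies on chromosome 12 of GRCm38, from 85473890 to 85477273. Of all tested genes, 1 had a more negative log2 fold change.

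Fosb, whose product replaces FOS in later AP-1 dimers, also had its highest level in NI2, with NI3 as the lowest islet sample. Tumor levels lay between 0.0791 and 0.932 CPM, with a median of 0.423. Islets held 32.7 CPM in the library labelled NI1, 110.2 in NI2 and 24.7 in NI3. The lowest tumor value, in M4, was 2 counts, below the detection floor. The log2 fold change was -6.75 (SE 0.64, adjusted p = 0.00372), and the gene (ENSMUSG00000003545) lies on chromosome 7 from 19302696 to 19310051. The other FOS genes were not called. Fosl2 was at 10.3 to 24.0 CPM (median 14.3) in tumors and at 13.2 CPM in the library labelled NI1, 7.84 in NI2 and 8.39 in NI3, with a log2 fold change of 0.68 (SE 0.31, adjusted p = 0.254). M6, at 10.3 CPM, was below the library labelled NI1, so the groups overlapped. Fosl1 had no count in any islet sample and at most 0.327 CPM, in M3, among tumors.

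Jun (ENSMUSG00000052684, chromosome 4, 95049034 to 95052222), the main partner of FOS, fell as well. Across tumors it ran from 23.8 to 51.7 CPM (median 39.9). In islets it was at 122 CPM in the library labelled NI1, 542 in NI2 and 272 in NI3, so the groups did not overlap. Its log2 fold change was -3.08 (SE 0.40, adjusted p = 0.0132). Junb (ENSMUSG00000052837, chromosome 8, 84974484 to 84978718), which forms weaker dimers with FOS, was at 15.7 to 35.1 CPM (median 23.4) in tumors and at 62.7 CPM in the library labelled NI1, 139 in NI2 and 123 in NI3. The log2 fold change was -2.14 (SE 0.31, adjusted p = 0.0245), again with every tumor below every islet sample. Jund, the JUN gene known for steady expression in resting cells, had a log2 fold change of -0.95 (SE 0.31, adjusted p = 0.168). It was at 70.5 to 216 CPM (median 121) in tumors and 180.4 CPM in the library labelled NI1, 319 in NI2 and 243 in NI3, and M5 exceeded the library labelled NI1.

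Per kilobase of exon, the make-up of the FOS and JUN family differed between groups. Of the summed level of the 7 genes, Fos took 1.13% ± 0.492 in tumors (SD, n = 6) and 38.8% ± 11.7 in islets (SD, n = 3). Jund took 74.6% ± 6.09 and 32.0% ± 11.2. Jund had the highest level of the family in 6 of 6 tumors and in the library labelled NI1, and Fos in NI2 and NI3. Fosl2 exceeded Fos per kilobase in 6 of 6 tumors and in 0 of 3 islet samples. The sum itself was 59.1 to 162 CPM per kilobase in tumors, 246 in the library labelled NI1, 476 in NI3 and 883 in NI2. No test was run on these shares, which follow in part from the falls of Fos and Jun already given.

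**Figure D2:**
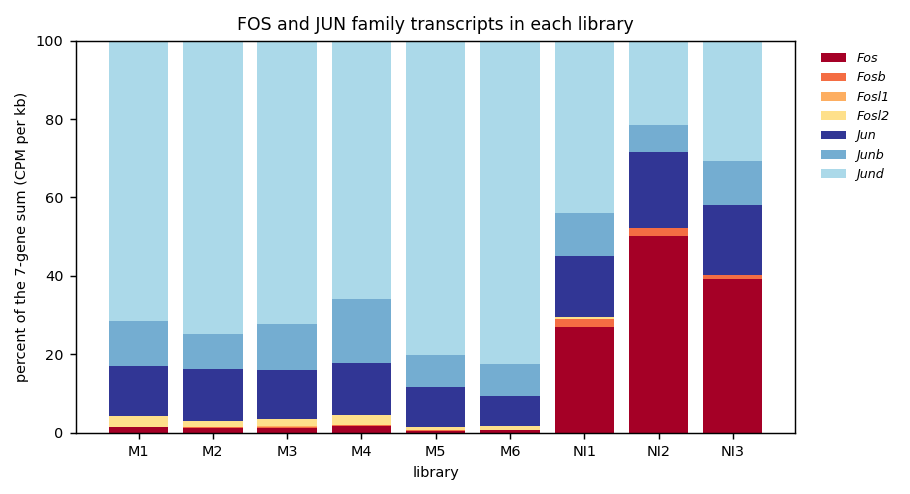
Stacked bars give the share of each FOS and JUN family gene (percent of the summed CPM per kilobase of exon, from 0 to 100) in each library. Jund fills 65.9% to 82.6% of the tumor bars, while Fos fills 26.9% to 50.2% of the islet bars and at most 1.79% of a tumor bar.

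The other AP-1 partners in the set did not pass the test. Atf3, a stress-induced partner and repressor, was at 1.88 to 5.66 CPM (median 4.29) in tumors and 5.46 CPM in the library labelled NI1, 9.81 in NI2 and 10.8 in NI3, with a log2 fold change of -1.17 (SE 0.41, adjusted p = 0.18). Maff, a small MAF protein, was at 4.02 to 10.7 CPM (median 7.12) in tumors and at 4.48 CPM in the library labelled NI1, 6.33 in NI2 and 10.3 in NI3. Its log2 fold change of 0.05 (SE 0.39, adjusted p = 0.961) turned to -0.20 without the library labelled NI1.

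Zinc finger factors of the EGR family are induced with FOS. Egr1 (ENSMUSG00000038418, chromosome 18, 34859823 to 34864984) fell next after Fos and Fosb. The tumors held 4.69 to 17.7 CPM, with a median of 10.96. Its islet levels were 80.5 CPM in the library labelled NI1, 351 in NI2 and 179.9 in NI3, and the log2 fold change was -4.19 (SE 0.48, adjusted p = 0.00711). As for Fos, NI2 was highest and the library labelled NI1 stood between the tumors and the other 2 islet samples. Egr3 was at 0.0396 to 0.853 CPM (median 0.391) in tumors and 2.10 CPM in the library labelled NI1, 4.16 in NI2 and 2.08 in NI3. All 6 tumors were below all islet samples, the log2 fold change was -2.82 (SE 0.68) and the adjusted p was 0.139, or 0.0433 without the library labelled NI1. Egr2, at 0.316 to 2.18 CPM (median 0.734) in tumors and 0.855 CPM in the library labelled NI1, 1.80 in NI2 and 1.56 in NI3, had overlapping groups and a log2 fold change of -0.50. Egr4 was near the detection floor everywhere, at most 0.0684 CPM.

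The NR4A genes encode orphan nuclear receptors that respond to cyclic AMP and calcium. Nr4a1 (ENSMUSG00000023034, chromosome 15, 101254269 to 101274795) fell. Levels in tumors were 5.10 to 10.96 CPM (median 7.95). In islets it was at 38.8 CPM in the library labelled NI1, 84.2 in NI2 and 52.9 in NI3. The log2 fold change was -2.88 (SE 0.28, adjusted p = 0.00401). Nr4a2 was below all islet samples in 6 of 6 tumors, at 1.44 to 6.45 CPM (median 2.83) against 8.97 CPM in the library labelled NI1, 13.5 in NI2 and 10.4 in NI3, with a log2 fold change of -1.74 (SE 0.43). Its adjusted p was 0.142, or 0.0478 without the library labelled NI1. Nr4a3 was low in both groups, at 0.417 to 1.23 CPM in tumors and 0.643 to 0.998 CPM in islets.

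Among the remaining nuclear factors, Ier2 (ENSMUSG00000053560, chromosome 8, 84661331 to 84662852) fell and the rest did not pass. Its tumor levels ran from 7.06 to 20.9 CPM (median 12.5). Its islet levels were 33.1 CPM in the library labelled NI1, 69.0 in NI2 and 55.6 in NI3, and the log2 fold change was -1.96 (SE 0.33, adjusted p = 0.0497), the weakest of the 10 calls. Npas4, which links calcium entry to transcription in neurons and beta cells, was at 0.193 to 4.86 CPM (median 1.20) in tumors and 6.30 CPM in the library labelled NI1, 8.62 in NI2 and 14.6 in NI3. All 6 tumors lay below the islets, M5 nearest to them, and the log2 fold change was -2.60 (SE 0.72, adjusted p = 0.152). Csrnp1 was also below all islet samples in all tumors, by a log2 fold change of -0.66 (adjusted p = 0.253). Ier5 was at -0.29. Per1, a clock gene that also responds to CREB, was at 28.0 to 89.5 CPM (median 58.7) in tumors and 56.0 CPM in the library labelled NI1, 56.1 in NI2 and 47.0 in NI3, a log2 fold change of 0.22 (SE 0.30, adjusted p = 0.723).

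KLF genes, whose zinc finger factors control growth arrest and vessel wall quiescence, did not pass the test. Klf2 had all 6 tumors below the islets (5.13 to 22.6 CPM (median 12.5) against 22.8 CPM in the library labelled NI1, 31.6 in NI2 and 34.2 in NI3) and a log2 fold change of -1.25 (SE 0.43, adjusted p = 0.178). Klf4 was at -0.30 and Klf10 at -0.03. Klf6 was at 25.6 to 63.5 CPM (median 46.9) in tumors and 32.3 CPM in the library labelled NI1, 42.5 in NI2 and 34.2 in NI3, a log2 fold change of 0.36 (SE 0.30, adjusted p = 0.531), with all islet samples inside the tumor range.

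DUSP phosphatases remove the activating phosphates from MAP kinases. Dusp1 and Dusp2, which act in the nucleus, fell, and Dusp5 and Dusp6 were not called. Dusp1 (ENSMUSG00000024190, chromosome 17, 26505590 to 26562128) varied little among tumors, with a coefficient of variation of 9.09% against 61.1% in islets. The 6 values ran from 17.6 to 22.0 CPM, with a median of 18.4. In islets it was at 47.0 CPM in the library labelled NI1, 166 in NI2 and 85.7 in NI3. Its log2 fold change was -2.39 (SE 0.30, adjusted p = 0.0118). The span of Dusp1 in GENCODE runs past its RefSeq start and overlaps Ergic1 on the opposite strand. Dusp2 (ENSMUSG00000027368, chromosome 2, 127336159 to 127338376) fell too, from islet levels under 10 CPM. Its 6 tumor values were between 0.161 and 1.19 CPM (median 0.384). Islet levels of 3.29 CPM in the library labelled NI1, 9.13 in NI2 and 5.59 in NI3 gave a log2 fold change of -3.65 (SE 0.59, adjusted p = 0.0437). Dusp6, a cytoplasmic phosphatase for ERK, had a log2 fold change of -0.54 (adjusted p = 0.254). Dusp5, a nuclear phosphatase for ERK, was at 26.6 to 64.4 CPM (median 39.6) in tumors and 25.6 CPM in the library labelled NI1, 56.4 in NI2 and 53.1 in NI3, a log2 fold change of -0.12 (adjusted p = 0.87), and the library labelled NI1 was the lowest of all 9. Differences between these genes were not tested.

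ZFP36 binds AU-rich elements and speeds the decay of mRNAs, those of early genes among them. Zfp36 (ENSMUSG00000044786, chromosome 7, 28376784 to 28380253) fell. Tumor values ran from 9.35 to 17.7 CPM, with a median of 14.7. Islet levels were 60.8 CPM in the library labelled NI1, 132 in NI2 and 108 in NI3, and the log2 fold change was -2.82 (SE 0.26, adjusted p = 0.00372). Btg2, an antiproliferative factor that recruits the deadenylase complex, was at 61.5 to 108 CPM (median 77.2) in tumors and 136 CPM in the library labelled NI1, 301 in NI2 and 203 in NI3. It separated the groups with a log2 fold change of -1.38 (SE 0.26), and its adjusted p was 0.0726, or 0.00783 without the library labelled NI1. Zfp36l1, a relative of Zfp36, was at -0.62 with overlapping groups, M4 being the highest of all libraries.

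**Figure D3:**
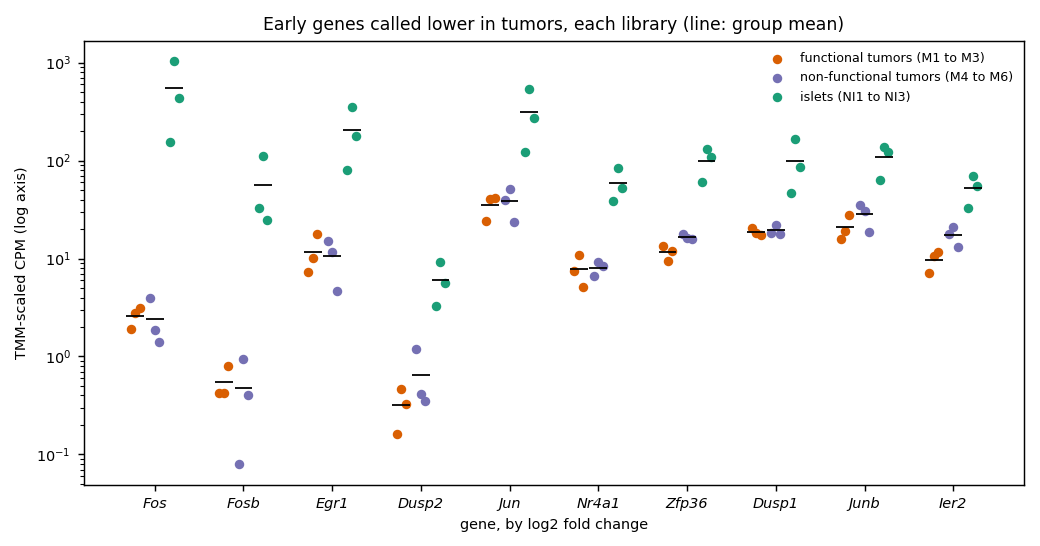
TMM-scaled CPM (log axis) of the 10 genes called lower in tumors, one point per library in replicate order from left to right, with group means as lines. All 6 tumors lie below all 3 islet samples for each gene. Functional and non-functional tumors overlap for 8 of the 10, all but Zfp36 and Ier2, where 15% of all genes did not overlap.

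Feedback genes of other pathways gave smaller values. Socs3, the inhibitor of JAK and STAT signaling, was at 7.56 to 17.7 CPM (median 15.1) in tumors and 26.8 CPM in the library labelled NI1, 87.0 in NI2 and 30.5 in NI3. Its log2 fold change was -1.81 (SE 0.39), with an adjusted p of 0.126, or 0.0171 without the library labelled NI1. NI2 stood apart from the other islet samples, which lay closer to the highest tumor. Sik1, a kinase that holds back CREB coactivators, was at -0.61 and Nfkbia, which encodes the NF-kB inhibitor IkBa, at -0.12, both with overlapping groups.

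Stress genes were mixed in sign. Ppp1r15a (GADD34), which restores translation after stress, was at 17.0 to 29.8 CPM (median 26.5) in tumors and 38.9 CPM in the library labelled NI1, 86.8 in NI2 and 63.1 in NI3. The groups did not overlap, and the log2 fold change of -1.32 (SE 0.26) had an adjusted p of 0.0837, or 0.00728 without the library labelled NI1. The GADD45 genes, induced by DNA damage and other stress, had log2 fold changes of -0.74 (Gadd45b), -0.34 (Gadd45g) and 0.67 (Gadd45a), none called. Gadd45a ran from 3.48 CPM in M3 to 28.7 CPM in M2 (median 15.2 over the 6 tumors) and was at 8.23 CPM in the library labelled NI1, 10.7 in NI2 and 10.0 in NI3 (SE 0.55, adjusted p = 0.515). The islet values all lay inside the tumor range.

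Genes of survival and synapse function did not pass. Mcl1, an antiapoptotic BCL2 relative with a short-lived transcript, was at -0.13 and Ier3 at -0.71. Arc, a synaptic early gene, had the highest log2 fold change of the set, 0.88 (SE 0.43, adjusted p = 0.286). Its levels were 3.56 to 11.5 CPM (median 5.16) in tumors and 3.40 CPM in the library labelled NI1, 3.14 in NI2 and 3.91 in NI3, and only M4 was within the islet range. Over the whole set, 18 of 39 genes had every tumor below every islet sample (3.17% of all genes) and 0 had every tumor above (4.5%). The 8 of these 18 that were not called were Egr3, Npas4, Socs3, Nr4a2, Btg2, Ppp1r15a, Klf2 and Csrnp1.

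Islet samples differed among themselves in these genes, in an order shared by most of them. NI2 exceeded the library labelled NI1 for 36 of 39 genes (50.6% of all genes) and was the highest of all 9 libraries for 21 (10.3% of all genes). NI3 exceeded the library labelled NI1 for 33 (50.4%), and NI2 exceeded NI3 for 32 (48%). NI2 was highest for 10 of the 10 called genes, and the library labelled NI1 was the lowest islet sample for 9 of them, all but Fosb. Relative to the tumor mean, the 10 genes were 5.10 to 417 times higher in NI2 (median 12.6), 4.11 to 176 times higher in NI3 (median 7.49) and 2.45 to 64.2 times in the library labelled NI1 (median 4.58). The library labelled NI1 stood above all tumors but below both other islet samples for 16 of 39 genes. Over all genes, it lay between all tumors and both other islet samples for 6.71%, a share that counts either direction. It lay inside the tumor range for 18 of 39, where 86.1% of all genes did. Thus the library whose Cdk5r1 was at tumor level was intermediate for much of the set. With 3 islet samples, these orders describe the libraries and carry no test.

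**Figure D4:**
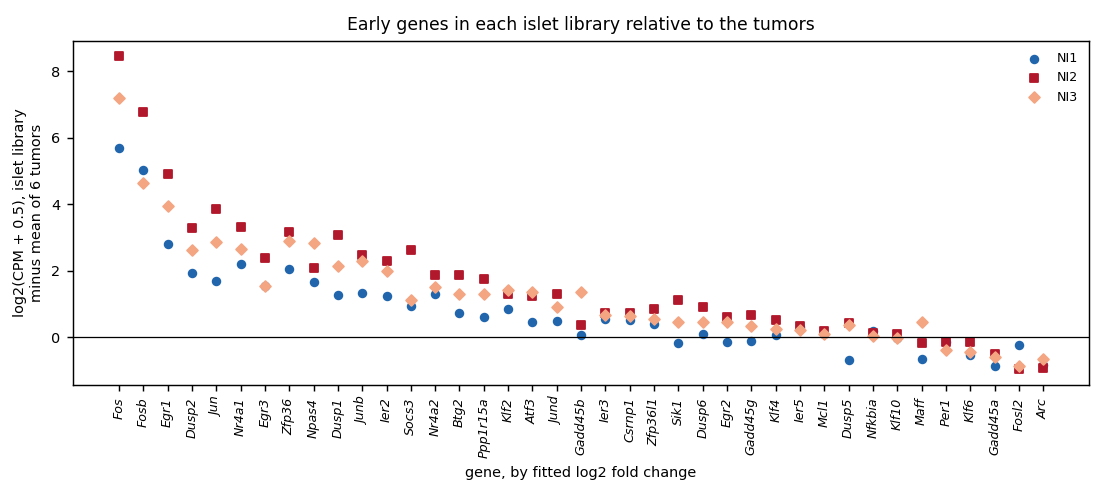
Level of each of 39 early response genes in each islet sample relative to the mean of the 6 tumors, as a difference of log2(CPM + 0.5) (vertical axis), with genes ordered by fitted log2 fold change. NI2 is the highest of the 3 islet samples for all 10 called genes, and the library labelled NI1 is above 0 for each of them.

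Apart from the cell type markers given below, genes outside the set were read from 4 lists. Of these, only the heat shock list held a call with all 9 libraries, 1 lower (0.258% of all genes). Of 36 other early response genes, 32 were tested and 0 were called in either direction. At an unadjusted p under 0.05, 11 were lower (9.14% of all genes) and 3 higher (10.7%). The median log2 fold change of the 32 was -0.43. The lowest were Myc at -1.44 (adjusted p = 0.161) and Ccn1 at -1.42 (adjusted p = 0.202), and the highest were Ccn2 at 1.58 (adjusted p = 0.23) and Snai1 at 1.46 (adjusted p = 0.167). Without the library labelled NI1, 4 of the 32 were called lower (Nfil3, Rasd1, Crem and Odc1), where 3.17% of all genes were, and the median was -0.53. Among 38 genes that act upstream, such as SRF, CREB and MAP kinases, 0 were called, and the median was 0.03. At an unadjusted p under 0.05, 2 were lower (9.14% of all genes) and 4 higher (10.7%). Without the library labelled NI1, 1 was called lower (3.17% of all genes), Map2k1, with a median of 0.06. Over all 9 libraries, Map2k1 at -0.83 and Prkacb at -0.81 were lowest, and Mapk7 at 0.64 and Rps6ka5 at 0.61 highest. Among 42 relatives of the set in the same gene families, 41 were tested, 0 were called, and the median was -0.01. At an unadjusted p under 0.05, 4 were lower (9.14% of all genes) and 4 higher (10.7%). Leaving out the library labelled NI1 gave 2 lower calls (Btg1 and Dusp14, 3.17% of all genes) and 1 higher call (Per3, 5.34%). The median was again -0.01. With all libraries these ran from Dusp14 at -1.46 and Klf15 at -1.02 to Ier5l at 0.80 and Per3 at 0.87. Upstream genes and family relatives thus had medians near that of all genes, 0.03.

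Heat shock genes, which encode chaperones and are also induced by stress, were all below 0 (11 of 11, median -0.63), where 47.5% of all genes were. At an unadjusted p under 0.05, 5 of them were lower (9.14% of all genes). Without the library labelled NI1, 5 of the 11 were called lower (Hspa1a, Hspa1b, Hsph1, Dnajb1 and Dnaja1), where 3.17% of all genes were, and the median was -0.90. With all 9 libraries, Hspa1a was called (-4.31, adjusted p = 0.0309) and Hspa1b was not (-3.80, adjusted p = 0.0732), but the near-identical sequences of this pair make the split of reads between them uncertain. The level of Hspa1a was 92.0 CPM in NI3, 70.1 CPM in NI2 and 6.40 CPM in the library labelled NI1, with the highest tumor at 5.10 CPM. Hspb1 at -0.47 and Hsp90aa1 at -0.24 were the highest of the list.

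**Figure D5:**
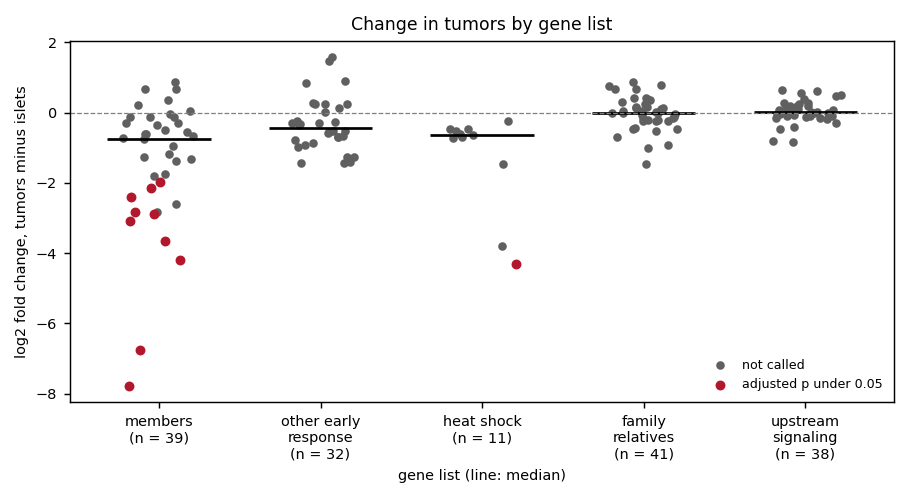
Log2 fold change in tumors against islets (vertical axis) of each tested gene in the early response set and 4 other lists, with the list median as a line and called genes in red. The set holds 10 called genes with a median of -0.74, and its relatives and upstream genes hold 0 with medians of -0.01 and 0.03.

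Markers of other cell types moved with the same comparison. The summed level of 10 acinar markers was 1.01 to 377 CPM in tumors, 692 in the library labelled NI1, 878 in NI2 and 13021 in NI3. Over 8 lymphoid markers it was 18.7 to 115 CPM in tumors and 163 to 198 CPM in islets. All tumors were below all islet samples for 9 of the 10 acinar, 4 of the 8 lymphoid and 2 of 10 beta cell markers (3.17% of all genes). Beta cell markers summed to 18848 to 117010 CPM in tumors, 122160 in the library labelled NI1 and 327360 and 365050 in NI2 and NI3. In the opposite direction, 7 macrophage markers summed to 394 to 1084 CPM in tumors and 175 to 384 CPM in islets. The sum of 6 proliferation markers was 269 to 821 CPM in tumors, 251 in the library labelled NI1, 126 in NI2 and 38.2 in NI3. All tumors were above all islet samples for 3 of the 7 macrophage and 5 of the 6 proliferation markers (4.5% of all genes). Of these 5 lists, only the lymphoid list held calls with all 9 libraries, 2 of 8 lower (0.258% of all genes). Median log2 fold changes were -5.77 (acinar), -2.87 (lymphoid), -0.58 (beta cell), 1.31 (macrophage) and 1.8 (proliferation). Without the library labelled NI1, 1 acinar, 4 lymphoid and 1 beta cell marker were lower (3.17% of all genes). In that fit 2 macrophage and 5 proliferation markers were higher (5.34%). No marker of these 5 lists was at 0 in all tumors or in all islet samples. NI3 had the highest acinar and beta cell sums, while NI2 had the highest level of all 10 called early genes. The part of these cell types in the falls was not tested, and the handling of islets against tumors cannot be told apart from the groups.

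Between functional and non-functional tumors, no gene of the set passed the test. The study calls a tumor functional when its secretion raises a hormone in blood plasma, and it found insulin in all tumors it stained. The smallest adjusted p of the 39 was 0.455, and 0 of all 15532 genes passed (0%). At an unadjusted p under 0.05, 3 of the set were lower in functional tumors (5.58% of all genes) and 2 higher (4.71%). DESeq2 called 111 genes, 89 lower (0.573%) and 22 higher (0.142%), with 0 of the set. Non-overlapping groups were seen for 7 of the 39 (15% of all genes). The lowest by unadjusted p were Klf2, Nfkbia and Ier2. Klf2 was at 11.9, 5.35 and 5.13 CPM in M1, M2 and M3 and at 16.3, 22.6 and 13.2 CPM in M4, M5 and M6, a log2 fold change of -1.22 (SE 0.38, unadjusted p = 0.0104 from edgeR's fit). Nfkbia had -0.63 (SE 0.22, unadjusted p = 0.0195) and Ier2 -0.82 (SE 0.32, unadjusted p = 0.0308). Toward higher levels in functional tumors, Arc had 0.93 (SE 0.40, unadjusted p = 0.0422), Egr3 1.68 (SE 0.71, unadjusted p = 0.0423) and Maff 0.33 (SE 0.45, unadjusted p = 0.49).

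For 6 of the 10 genes that fell in tumors (Fos, Fosb, Egr1, Jun, Nr4a1 and Dusp1), the log2 fold change between tumor groups lay within 0.17 of 0. The other 4 had negative log2 fold changes, and none passed the test. They were -1.0 for Dusp2 (SE 0.67), -0.82 for Ier2 (SE 0.32), -0.51 for Zfp36 (SE 0.28) and -0.43 for Junb (SE 0.36). Only Ier2 among them had an unadjusted p under 0.05 from edgeR's fit. The groups did not overlap for Ier2 and Zfp36, where 15% of all genes did not overlap. Of all 39 genes, 27 lay below 0 and 12 above, with a median of -0.10, against 0.0095 over all genes tested. The share of all genes below 0 in this comparison was not computed, so no lean of the set is read from that split. Fos was at 2.61 ± 0.645 CPM in functional (SD, n = 3) and 2.39 ± 1.34 CPM in non-functional tumors (SD, n = 3), a log2 fold change of 0.15 with an SE of 0.64. For Egr1 it was 0.15 (SE 0.58), for Jun -0.11 (SE 0.50), for Nr4a1 -0.04 (SE 0.35) and for Dusp1 -0.05 (SE 0.38). For the first 6, the standard errors leave room for differences larger than the SE itself, so equality was not shown.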

How the data were processed

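Single-end 75-base RNA-seq libraries of 9 mouse samples were made by the authors, who trimmed reads with Trimmomatic 0.38, quantified transcripts with salmon 1.4.0 against mm10 and tested them with DESeq2. The deposited table holds whole-number counts per Ensembl gene, although it is named for TPM, since its columns sum to 36468280 to 63637175. The step from transcripts to genes is not given in the sources used here.

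Identifiers were matched to GENCODE vM21 (GRCm38), which gave symbols for 54094 of 54347 genes, and the 253 unmatched genes held at most 0.0235% of a library's counts. The filter kept genes reaching 1 CPM in 3 or more libraries. Scaling used TMM, and the two-sided test was edgeR's quasi-likelihood F test (version 4.0.16, R 4.3.3). The 6 tumors were set against 3 islet samples as 2 groups, and functional against non-functional tumors in a fit of 3 groups. P-values were adjusted by Benjamini-Hochberg over all 15532 tested genes at 0.05. The standard error (SE) of a log2 fold change was |log2 fold change| over the root of F. CPM values are TMM-scaled. Exon length was that of merged GENCODE exons. Promoters came from RefSeq on GRCm38.p6. The script was tested on simulated counts.

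The genes and lists were chosen with earlier results of these data known. By rule, full values were given for called genes, for the 6 highest that were not called, for the untested genes and for 3 genes in each direction between tumor groups. From each list the 2 lowest and 2 highest were named. Values added for other genes of the set were chosen after they were seen.

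Alternatives were DESeq2 1.42.0, median-of-ratios size factors, no filter on low counts, no mitochondrial genes, 3 groups, the 6 tumors alone, a replicate block and each library left out. DESeq2 without the library labelled NI1 was added after seeing the data. Fits that left out libraries kept the genes of the full table. Marker lists of alpha, delta and PP, ductal, endothelial, fibroblast, pericyte and smooth muscle, Schwann and red blood cells were summed as well.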

Additional observations from a re-analysis of the deposited data

Results flagged for a closer look

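Over the 6 tumors, 3 of 39 genes had a tumor whose gap to its nearest neighbor, divided by the range of the group, exceeded Dixon's 95% critical value for 6 samples, where chance gives about 1 in 20. Dusp2 was at 1.19 CPM in M4 and at 0.161 to 0.466 CPM in the other tumors. Npas4 was at 4.86 CPM in M5, against 0.193 to 1.29 CPM in the other tumors. Gadd45g was at 119.6 CPM in M5, against 52.6 to 66.7 CPM in the other tumors. M4 is also the library with 32.12% mitochondrial counts, whose part in the Dusp2 value was not tested.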

How the results depend on the processing

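The count of 10 genes of the set lower in tumors was 16 by DESeq2, 18 by DESeq2 without the library labelled NI1, 8 with median-of-ratios size factors and 10 without the filter, without mitochondrial genes and with 3 groups. With 1 library left out it ran from 5 (without NI3 or without M5) to 15 (without the library labelled NI1). No gene of the set was higher in any of these fits. Over all genes, the 40 lower calls became 94 with 3 groups, 493 by DESeq2, 1041 by DESeq2 without the library labelled NI1, 98 without the filter and 7 to 492 with 1 library left out. The 0 higher calls became 4, 770, 1909, 6 and 0 to 829 in the same order. Between tumor groups, the 0 genes became 111 by DESeq2, 1 without the filter and 0 to 1 with 1 library left out, with 0 of the set throughout. The cause of these shifts was not tested. The median log2 fold change of -0.74 ran from -0.99 to -0.61 with 1 library left out. The count of 18 genes with every tumor below every islet sample (3.17% of all genes) ran from 18 to 21. The 21 came without the library labelled NI1, where the share of all genes was 16.3%.

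Titles share the numbers 1 to 3 between M1 to M3 and the islets. Same-numbered samples did not deviate together (correlations -0.0516, 0.03 and -0.159), and no sample correlated best with its own number. Correlations of deviations from means of 3 libraries cannot exclude a pairing. As a replicate block the number has 6 levels, and M4, M5 and M6 are each alone in theirs. These 3 tumors therefore add nothing to that contrast, which sets M1 to M3 against the islets. In that fit 1 gene of the set was lower, the median was -1.08, and over all genes 28 were lower and 12 higher. No paired analysis was possible between tumor groups because they share no numbers.

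Of 624 values (39 genes under 16 alternatives), 559 kept their direction and side of the threshold, 34 lost and 22 gained a call, and 9 changed sign, none of them of a called gene. Fos was called in all 16. The sign changes were Dusp5 at 0.07 (without NI2) and 0.01 (without NI3), Klf10 at 0.06 (without M2) and 0.01 (without NI2), and Maff at -0.19 (DESeq2 without the library labelled NI1), -0.10 (without M2), -0.05 (without M3), -0.20 (without the library labelled NI1) and -0.02 (without NI2). With 1 library left out, Dusp5 ran from -0.40 to 0.07, Klf10 from -0.12 to 0.06 and Maff from -0.20 to 0.42. Depth limits Fosl1 and Egr4, and Fosb and Egr3 in M4, which had 2 counts and 1 count.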

Other observations

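The marker lists not described above gave these values. The summed level of 8 alpha, delta and PP cell markers was 592 to 3643 CPM in tumors and 1859, 3958 and 20310 CPM in the library labelled NI1, NI2 and NI3. Endothelial markers (7 genes) summed to 367 to 1133 CPM in tumors and 1051 to 1162 CPM in islets, and 5 red blood cell markers to 68.0 to 373 CPM and 295 to 387 CPM. Ductal markers (6 genes) summed to 308 to 771 CPM in tumors and 392 to 516 CPM in islets, fibroblast markers (6 genes) to 18.2 to 188 CPM and 41.3 to 93.6 CPM, and pericyte and smooth muscle markers (7 genes) to 479.6 to 1408 CPM and 449 to 550.4 CPM. Schwann cell markers (5 genes) summed to 14.1 to 22.4 CPM in tumors and 15.2 to 20.3 CPM in islets.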
